A study of Mus musculus with 13 samples.

Results

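The annexin genes described here are Anxa1, Anxa2, Anxa3, Anxa4, Anxa5, Anxa6, Anxa7, Anxa8 and Anxa11, which are 9 of the 12 annexin genes of the mouse annotation and 9 of the 57010 genes listed for each library. They were chosen by their gene symbols with their expected counts in the 4 groups already known. Their levels, fold changes and calls past a threshold are thus given as a description, with no p-value printed. RNA of wild-type (WT) mouse embryonic fibroblasts (MEFs), primary cells grown in bulk from minced mid-gestation embryos, was sequenced in 4 groups. The groups were control MEFs, listed as untreated in the labels and as given vehicle in the methods, senescent MEFs without Fucoidan, and senescent MEFs that received 100 μg/mL or 300 μg/mL of Fucoidan-FV. Senescence was induced in the 3 senescent groups with etoposide, a topoisomerase inhibitor that breaks DNA, at 2 μM, which was removed after 24 h and replaced by normal medium for the next 5 days. Fucoidan-FV, a polysaccharide rich in sulfate and fucose from the seaweed Fucus vesiculosus, was given for 12 h before RNA extraction. Each group holds samples of mice numbered 4, 5 and 6 by the labels, and control mouse 5 has a pair of libraries, so 13 libraries cover 3 mice in each of 4 groups.

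Annexins are soluble proteins that bind membranes rich in acidic phospholipids, above all phosphatidylserine, when calcium rises. Their conserved core is built of repeats, and many repeats hold a calcium-binding loop with the residues glycine, any residue, glycine and threonine (G-x-G-T). Through this binding they tie membranes to actin, take part in exocytosis and endocytosis, and gather at tears of the plasma membrane to close them. The N-terminal tails differ between members and bind partners such as S100 proteins. Fibroblasts are known to hold large amounts of annexins A1, A2, A5 and A6.

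The coding stretch of the first G-x-G-T loop of each gene is shown because this loop is typical of annexin repeats. The stretches were read from the genome GRCm39 and the GENCODE vM39 canonical transcripts, 39 bases each on the coding strand, and the capitals mark the 4 codons of the loop. Each stretch spans an exon junction, so its genomic start and end enclose an intron.
Anxa1: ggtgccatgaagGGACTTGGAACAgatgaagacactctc
Anxa2: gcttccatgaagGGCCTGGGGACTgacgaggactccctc
Anxa3: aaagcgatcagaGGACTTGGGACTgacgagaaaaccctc
Anxa4: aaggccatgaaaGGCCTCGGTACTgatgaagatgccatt
Anxa5: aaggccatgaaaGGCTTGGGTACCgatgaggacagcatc
Anxa6: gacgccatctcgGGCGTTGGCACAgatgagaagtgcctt
Anxa7: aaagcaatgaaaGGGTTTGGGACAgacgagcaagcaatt
Anxa8: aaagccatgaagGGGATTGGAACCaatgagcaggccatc
Anxa11: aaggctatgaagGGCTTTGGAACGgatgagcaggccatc
These stretches lie at chr19:20359478-20360237 for Anxa1 (minus strand, exons 5 and 6), chr9:69387062-69390282 for Anxa2 (plus strand, exons 5 and 6) and chr5:96958978-96960720 for Anxa3 (plus strand, exons 3 and 4). Those of Anxa4 and Anxa5 lie at chr6:86734876-86737674 and chr3:36518192-36519418, both on the minus strand in exons 3 and 4. That of Anxa6 lies at chr11:54900000-54901829 (minus strand, exons 5 and 6). Anxa7, Anxa8 and Anxa11 are all on chromosome 14, with stretches at chr14:20514752-20514930 (minus strand, exons 6 and 7), chr14:33811540-33812583 (plus strand, exons 2 and 3) and chr14:25874437-25874653 (plus strand, exons 5 and 6).

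The loop was found at different distances from the N terminus. It was preceded by 27 residues in Anxa5 and 28 in Anxa4, but by 174 in Anxa7 and 212 in Anxa11, whose long tails precede the core. In Anxa6, Anxa2 and Anxa1 it was preceded by 106, 119 and 128 residues. As not every repeat holds the loop, the first loop need not lie in the same repeat of each protein. The canonical protein of Anxa6 had 667 residues and 5 such loops, Anxa1 and Anxa2 had 2 loops each, and the other 6 had 3. Between members, aligned protein sequences were 41.9% (Anxa1 and Anxa5) to 59.2% (Anxa4 and Anxa11) identical, with a median of 49.7% over the 36 pairs. Anxa1 was 53.8% identical to Anxa2 and 51.6% identical to Anxa3.

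All 9 genes passed the filter on low counts, with at least 248 counts in every library, and 15034 genes were tested in all. Of the other 3 annexin genes, Anxa9 had 0 to 45 counts per library, Anxa10 0 to 7 and Anxa13 0 to 15, and only Anxa9 was tested. Totals ran from 22782536 to 31278750 counts per library. Differences below come from edgeR's quasi-likelihood test on expected counts over the 4 groups, and a gene was called a differentially expressed gene (DEG) when its adjusted p was under 0.05 and its log2 fold change was beyond 1 or -1. Levels of one gene between samples are given in CPM, counts scaled to the total of the library with TMM factors. As RNA came from bulk cultures, fewer expressing cells and less RNA per cell cannot be told apart.

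The libraries differed in the counts of genes with a single annotated transcript. Over 974 such genes, the median log2 deviation of a library from the mean ran from -1.54 to 1.21, while over 10764 genes with several transcripts it ran from -0.11 to 0.12. All 9 annexin genes have several transcripts, from 2 for Anxa8 to 11 for Anxa7. Whether their values share in this difference between libraries was not tested. Fibroblast markers (Col1a1, Col1a2, Col3a1, Pdgfra, Pdgfrb, Vim, Thy1 and Fn1) summed to 13860 to 15742 TPM, RSEM's level per length and library size, in control MEFs and 17859 to 21930 TPM in the senescent groups. By the fit, 5 of these 8 were higher and 3 lower in untreated senescent than in control MEFs. Those lower were Col1a2 (log2 fold change -0.65), Pdgfra (-0.62) and Col1a1 (-0.49), and Pdgfra had only 0.38 to 7.48 TPM. Of 10 epithelial markers, Epcam, Cdh1, Krt5, Krt14, Krt8, Trp63 and Cldn4 reached at most 0.43 TPM in any library and Krt18 at most 1.97. Krt19 ran from 1.81 to 62.4 TPM and Dsp from 0.29 to 15.5 TPM, and the 10 markers summed to 12.5 to 20.8 TPM with Fucoidan-FV and 24.8 to 51.7 TPM without. The 7 macrophage and leukocyte markers summed to at most 17.95 TPM and the 5 endothelial markers to at most 4.28 TPM. The 6 skeletal muscle markers summed to 202 to 277 TPM in control MEFs, 243 to 315 TPM in untreated senescent MEFs, 134 to 210 TPM with 100 μg/mL and 121 to 185 TPM with 300 μg/mL Fucoidan-FV, with Myod1 and Myog at 0.06 TPM or less in every library. The part of other cells in the annexin values was not tested.

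To compare the genes with each other, the deposited TPM, which are scaled by length, were used. Anxa1 and Anxa2 were the leading annexins of these cells in every group. In control MEFs their levels were 2287 ± 333 TPM and 2422 ± 172 TPM (mean ± SD, n = 3 mice, with the mean of both libraries for mouse 5), which did not differ beyond their spread. Anxa5 with 825 ± 65.6 TPM and Anxa3 with 812 ± 109 TPM came next and also lay within each other's spread. They were followed by Anxa6 with 478 ± 24.9 TPM, Anxa7 with 113 ± 6.67 TPM and Anxa4 with 66.3 ± 22.7 TPM. Anxa11 with 32.9 ± 5.06 TPM and Anxa8 with 15.7 ± 6.99 TPM had the lowest control levels among the 9 genes.

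In the untreated senescent MEFs the order changed at the ends. The levels were 2877 ± 247 TPM for Anxa1, 2497 ± 125 TPM for Anxa2 and 1627 ± 183 TPM for Anxa5, which was above Anxa3 (905 ± 196 TPM) in every mouse. At the low end, Anxa8 had a mean of 49.0 ± 28.9 TPM beside Anxa11 at 33.2 ± 5.28 TPM, and their ranges overlapped. With 100 μg/mL Fucoidan-FV the levels of Anxa2, Anxa1, Anxa5 and Anxa3 were 1663 ± 106, 1584 ± 156, 1011 ± 163 and 434 ± 86.4 TPM, and with 300 μg/mL 1733 ± 166, 1598 ± 328, 992 ± 73.0 and 507 ± 125 TPM. Anxa1 and Anxa2 lay within each other's spread in both treated groups.

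Summed over all 12 annexin genes, the level was 7054 ± 172 TPM in control MEFs and 8603 ± 415 TPM in untreated senescent MEFs. It was 5330 ± 309 TPM with 100 μg/mL Fucoidan-FV and 5508 ± 646 TPM with 300 μg/mL. The sums of the treated samples (4781 to 6016 TPM) lay below those of the untreated senescent samples (8338 to 9082 TPM) and of the control samples (6877 to 7219 TPM) without overlap. The share of the sum taken by Anxa1 was 32.4% ± 4.06 in control MEFs, 33.4% ± 1.44 in untreated senescent MEFs, 29.7% ± 1.29 with 100 μg/mL and 28.8% ± 2.72 with 300 μg/mL. For Anxa5 it was 11.7% ± 1.16, 19.0% ± 2.71, 18.9% ± 2.07 and 18.1% ± 1.42, so the control share alone stood apart from the rest.

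**Figure D1:**
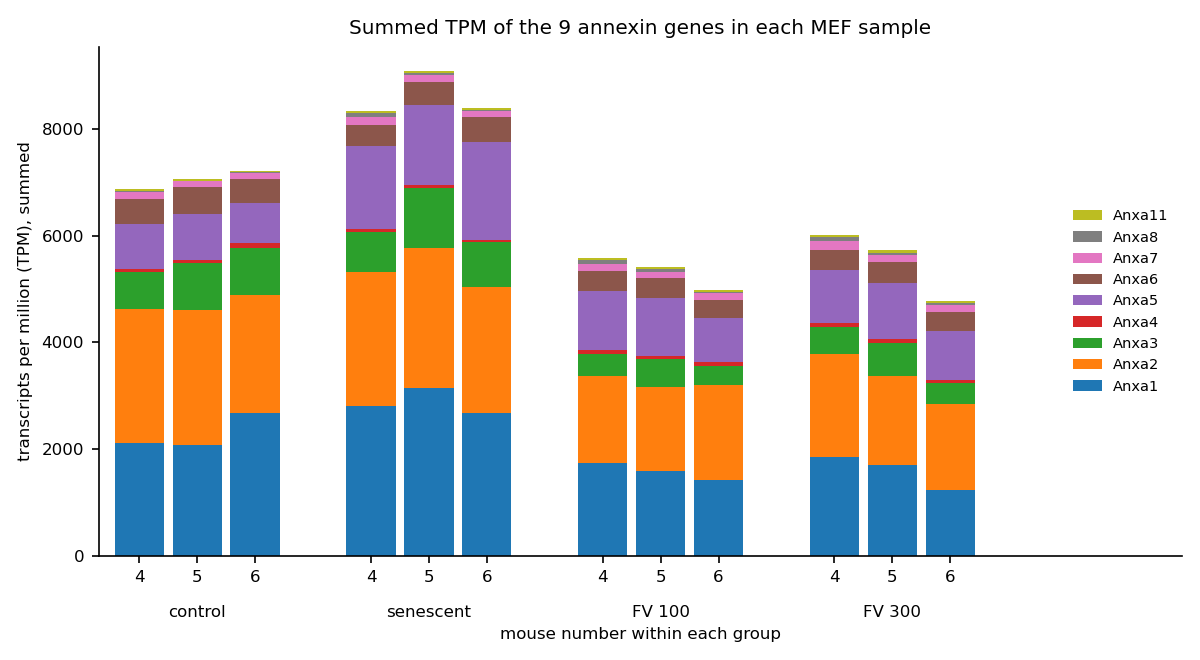
Summed level of the 9 annexin genes in TPM (vertical axis) in each sample, by group and mouse number, with 1 coloured segment per gene and the mean of both libraries for control mouse 5. Summed over all 12 annexin genes, the untreated senescent samples reach 8338 to 9082 TPM and the treated samples 4781 to 6016 TPM. Anxa1 (bottom) and Anxa2 make up the largest segments in all 12 samples.

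The comparison of untreated senescent with control MEFs asks which annexin genes moved with etoposide-induced senescence. Anxa8 and Anxa5 had the largest differences, both higher in senescent MEFs, and the other 7 genes differed by at most 0.28 on the log2 scale. Over the 9 genes the median log2 fold change was 0.09, beside 0.07 over all 15034 genes tested.

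Anxa8, known from keratinizing epithelia and from vesicle traffic in endothelium, had 23.3 CPM in mouse 4, 11.4 CPM in mouse 5 and 12.7 CPM in mouse 6 in control MEFs. In untreated senescent MEFs the same mice had 70.4, 39.2 and 29.9 CPM. The highest control sample lay below the lowest senescent sample, and mouse 4 was the highest in each of the 4 groups. The fitted log2 fold change was 1.56 ± 0.46 (SE), and within the mice the log2 difference was 1.59, 1.79 and 1.23.

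Anxa5, which binds phosphatidylserine exposed on cell surfaces and is used for that reason as a probe of apoptotic cells, had 429, 428 and 311 CPM in control mice 4, 5 and 6. In untreated senescent MEFs it had 604, 596 and 980 CPM, so that the groups did not overlap and mouse 6 stood well above the others. The fitted log2 fold change was 0.90 ± 0.23 (SE), and it was 0.63 without the senescent sample of mouse 6. The libraries of control mouse 5 differed in Anxa5, with 288 CPM in library 5(1) and 531 CPM in library 5(2), which is a log2 difference of 0.88 within 1 mouse. The length that the authors' RSEM run gave to Anxa5 also varied, from 777 to 1004 bases across the libraries, against 1622 to 1633 bases for Anxa1, which was the steadiest of the 9. The shortest Anxa5 lengths, 777 and 779 bases, were in mouse 4 at 300 μg/mL Fucoidan-FV and in control mouse 6. These libraries were low in genes with a single transcript (median log2 deviation -1.12 and -1.54). The longest, 979 and 1004 bases, were in mice 4 and 5 at 100 μg/mL, whose libraries were high in such genes (1.08 and 1.21). The part of these differences in the Anxa5 result was not tested.

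Anxa8 was the 1 DEG among the 9 genes, where 4.47% of all genes tested were higher DEGs. Anxa8 and Anxa5 both passed the adjusted p alone, where 6.11% of all genes were called higher, and both were higher without overlap, where 14.2% of all genes were. These counts describe genes that were chosen on the same values, and nothing is read from them. Anxa8 was called in 8 of 15 alternative settings and in 1 of the 6 that left out a sample, the one without senescent mouse 6. Its log2 fold change ran from 1.11 without senescent mouse 4 to 1.95 without control mouse 4.

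The other genes overlapped between senescent and control MEFs. Anxa1 was higher in senescent MEFs within each mouse, by 0.22, 0.48 and 0.15 on the log2 scale, and its fitted log2 fold change was 0.28 ± 0.21 (SE). The libraries of control mouse 5 alone differed in Anxa1 by more than this, with a log2 difference of -0.53 for 5(2) against 5(1). The fitted log2 fold change was 0.04 ± 0.19 for Anxa2, 0.11 ± 0.22 for Anxa3 and 0.09 ± 0.18 for Anxa7. Anxa4, which self-associates on membranes and is best known from secretory epithelia, differed by -0.21 ± 0.24, Anxa6 by -0.16 ± 0.18 and Anxa11 by -0.03 ± 0.17. With library 5(1) or 5(2) alone in place of their sum, these 7 genes were called neither higher nor lower.

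The comparisons of the treated with the untreated senescent MEFs ask which annexin genes moved within 12 h of Fucoidan-FV, and both use the same 3 untreated senescent samples. Anxa1, Anxa2, Anxa3, Anxa5 and Anxa6 were lower at both doses, and Anxa7 was lower at 100 μg/mL to a smaller degree. The treated samples of Anxa4, Anxa8 and Anxa11 overlapped with the untreated senescent samples at both doses. Over the 9 genes the median log2 fold change was -0.75 at 100 μg/mL and -0.55 at 300 μg/mL, beside -0.02 and 0.00 over all genes tested.

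Anxa1, a protein induced by glucocorticoids that restrains phospholipase A2 and whose N-terminal peptide is a ligand of formyl peptide receptors, had 2632, 3322 and 3341 CPM in the untreated senescent samples of mice 4, 5 and 6. With 100 μg/mL Fucoidan-FV it had 1283, 1151 and 1277 CPM, and with 300 μg/mL 1773, 1328 and 1081 CPM. Each treated sample lay below each untreated senescent sample and also below each control sample (2256, 2378 and 3019 CPM). The log2 fold change was -1.32 ± 0.21 (SE) at 100 μg/mL and -1.15 ± 0.21 at 300 μg/mL. Within the mice, the log2 difference at the higher dose was -0.57 in mouse 4, -1.32 in mouse 5 and -1.63 in mouse 6, a wider spread than at 100 μg/mL (-1.04, -1.53 and -1.39).

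Anxa2, which forms a tetramer with S100a10, binds plasminogen and its activator at the cell surface and links membranes to actin, had 1638, 1812 and 2333 CPM in the untreated senescent samples. It had 893, 842 and 1074 CPM with 100 μg/mL and 1251, 929 and 1014 CPM with 300 μg/mL Fucoidan-FV, in both cases below all untreated senescent and all control samples (1725 to 1984 CPM). The log2 fold change was -1.04 ± 0.19 (SE) at 100 μg/mL, just past the fold threshold of a DEG, and -0.86 ± 0.19 at 300 μg/mL, just inside it.

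Anxa3, known from granules of neutrophils, had 362, 579 and 523 CPM in the untreated senescent samples. The values were 188, 230 and 159 CPM with 100 μg/mL and 229, 262 and 170 CPM with 300 μg/mL. No treated sample reached the lowest untreated senescent or control sample, which had 362 and 391 CPM. The log2 fold change was -1.34 ± 0.23 (SE) at 100 μg/mL and -1.15 ± 0.23 at 300 μg/mL.

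Anxa5 had 426, 424 and 293 CPM with 100 μg/mL and 342, 379 and 336 CPM with 300 μg/mL Fucoidan-FV, against 604, 596 and 980 CPM in the untreated senescent samples. These treated samples lay within or below the range of the control samples (311 to 429 CPM), unlike those of Anxa1, Anxa2 and Anxa3, which were all below it. On the TPM scale the picture differed, as the treated means of 1011 and 992 TPM lay above the control mean of 825 TPM. The log2 fold change was -0.93 ± 0.23 (SE) at 100 μg/mL and -1.05 ± 0.23 at 300 μg/mL. Mouse 6 had the largest decrease at both doses, with a log2 difference of -1.74 and -1.55, and without its untreated senescent sample the fitted log2 fold change was at its smallest, -0.49 and -0.72.

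Anxa6, a double-length annexin that binds cholesterol-rich membranes and takes part in membrane repair, had 627, 709 and 960 CPM in the untreated senescent samples. It had 446, 430 and 487 CPM with 100 μg/mL and 589, 479 and 503 CPM with 300 μg/mL, all below the untreated senescent and the control samples (813 to 915 CPM). The log2 fold change was -0.75 ± 0.18 (SE) and -0.55 ± 0.18, and without the untreated senescent sample of mouse 6 it was -0.41 and -0.31.

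Anxa7, also called synexin and known for fusing the membranes of secretory granules, had 237, 266 and 245 CPM in the untreated senescent samples. The values were 175, 160 and 221 CPM with 100 μg/mL and 276, 196 and 222 CPM with 300 μg/mL. The groups did not overlap at 100 μg/mL (log2 fold change -0.43 ± 0.18 SE, and -0.25 without senescent mouse 5) but did at 300 μg/mL (-0.11 ± 0.18), where mouse 4 was higher than without Fucoidan-FV.

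The remaining 3 genes overlapped at both doses. Anxa4 had 62.0, 84.9 and 66.3 CPM in the untreated senescent samples, 59.2, 49.0 and 65.6 CPM with 100 μg/mL and 80.1, 56.7 and 64.0 CPM with 300 μg/mL. Anxa11, which binds the calcium sensor Pdcd6 and carries RNA granules on lysosomes, stayed between 53.6 and 69.4 CPM in all 9 senescent samples. Anxa8 had 53.2, 36.1 and 18.6 CPM with 100 μg/mL and 63.2, 36.4 and 25.3 CPM with 300 μg/mL, so the treated means of 36.0 and 41.7 CPM stayed above the control mean of 15.8 CPM. Their log2 fold changes at 100 μg/mL were -0.29 ± 0.24, 0.03 ± 0.17 and -0.37 ± 0.45 (SE) for Anxa4, Anxa11 and Anxa8, and at 300 μg/mL -0.09 ± 0.24, 0.20 ± 0.17 and -0.16 ± 0.45.

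**Figure D2:**
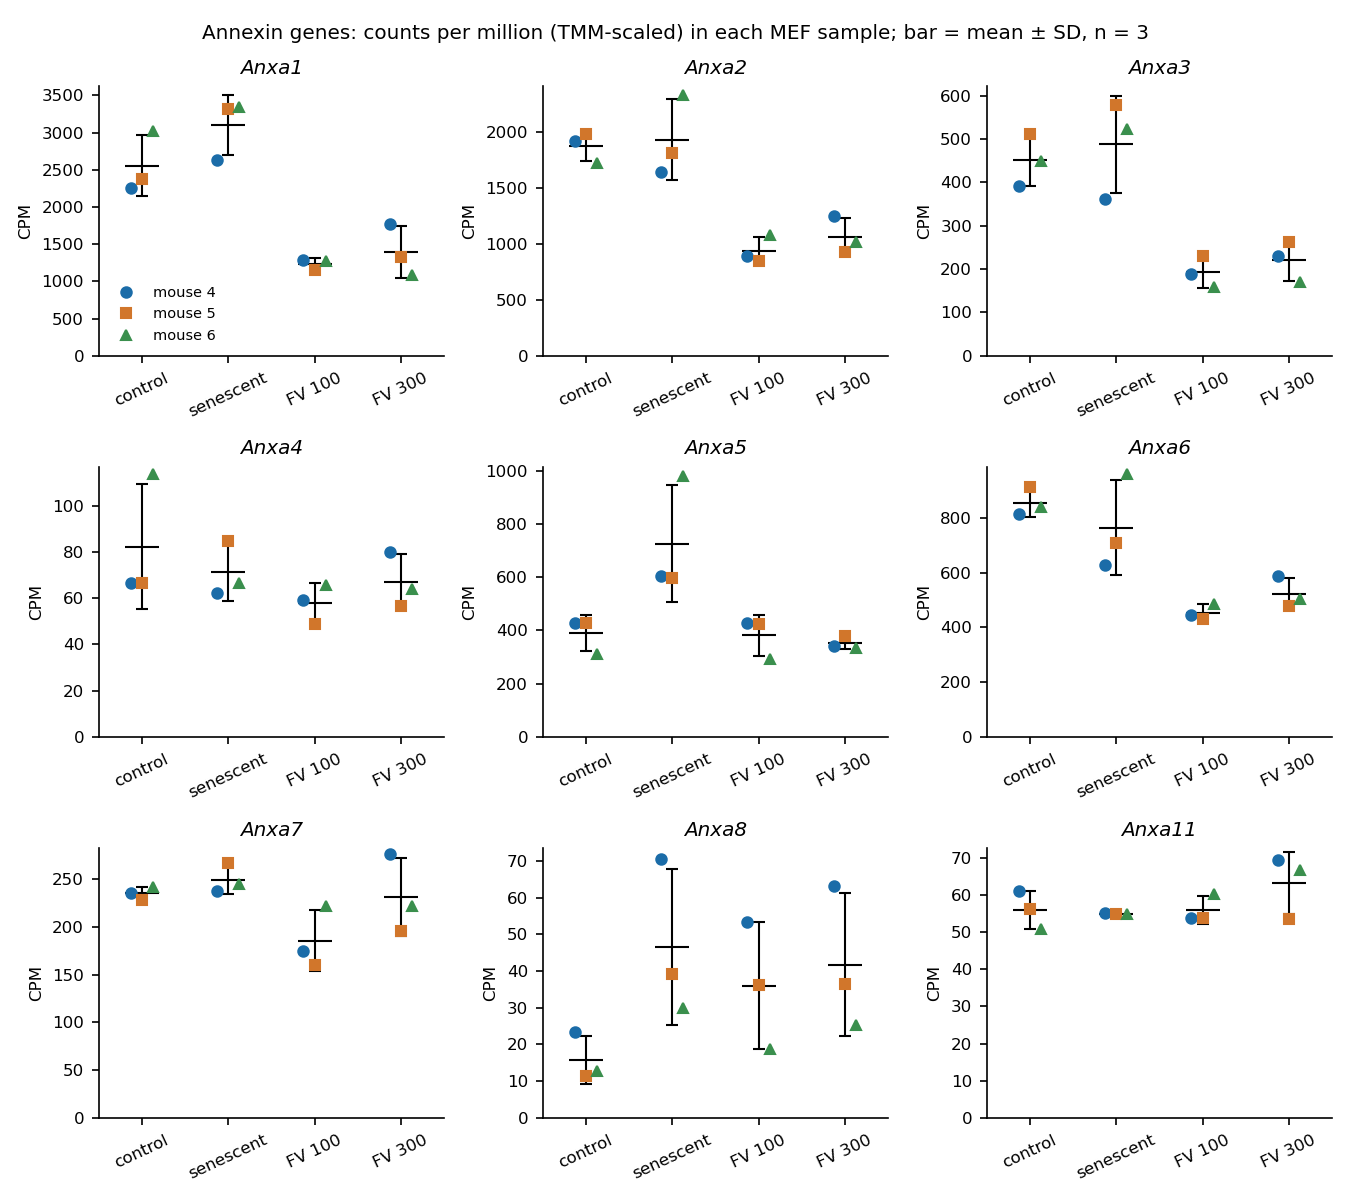
Level of each of the 9 annexin genes in TMM-scaled CPM (vertical axes, from 0) in the 4 groups, with a point for each mouse and black bars for the mean ± SD of 3 mice. For Anxa1, Anxa2, Anxa3 and Anxa6 all samples with Fucoidan-FV (FV 100 and FV 300, in μg/mL) sit below all control and untreated senescent samples, while Anxa11 stays between 50.8 and 69.4 CPM throughout.

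At 100 μg/mL Fucoidan-FV, Anxa1, Anxa2 and Anxa3 were lower DEGs, where 1.6% of all genes tested were, and 5 of the 9 genes passed the adjusted p alone (with Anxa5 and Anxa6), where 2.89% of all genes did in that direction. At 300 μg/mL the lower DEGs were Anxa1, Anxa3 and Anxa5, where 0.885% of all genes were, and 4 genes passed the adjusted p alone (with Anxa2), where 1.12% did. The values lay lower without overlap for 6 genes at 100 μg/mL and 5 at 300 μg/mL, where 15% and 10.2% of all genes did. As these values chose the genes, the counts are a description.

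The calls differed in how they held across 15 alternative settings. These reuse the same samples, and the genes were chosen on these values, so the counts of settings are a description. Either control library alone leaves the samples of both groups compared here unchanged. At 100 μg/mL Anxa1 was called in 15 settings, Anxa3 in 12 and Anxa2 in 4. Anxa2 was not called with RLE factors, DESeq2, either other filter, only the 2 groups compared or only genes with several transcripts. At 300 μg/mL Anxa1 was called in 12, Anxa3 in 10 and Anxa5 in 6. With the mouse as a block 2 of the 3 calls at 300 μg/mL were made, without Anxa5. When 1 sample was left out, the call of Anxa2 at 100 μg/mL was lost without senescent mouse 4, 5 or 6 or treated mouse 4 or 5 (log2 fold change -1.15 to -0.74), and that of Anxa3 without senescent mouse 5 or 6 (-1.49 to -1.04 over all 6). At 300 μg/mL the call of Anxa1 was lost without treated mouse 5 or 6 (-1.36 without treated mouse 4 to -0.997 without treated mouse 6), that of Anxa3 without treated mouse 4 or 6 or senescent mouse 5 or 6 (-1.29 to -0.95), and that of Anxa5 without any 1 of the 6 samples (-1.11 to -0.72). The direction of Anxa1, Anxa2, Anxa3, Anxa5 and Anxa6 held in all 15 settings at both doses, while at 1 or both doses the sign of Anxa4, Anxa7, Anxa8 and Anxa11 turned in 1 or 2 of them.

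**Figure D3:**
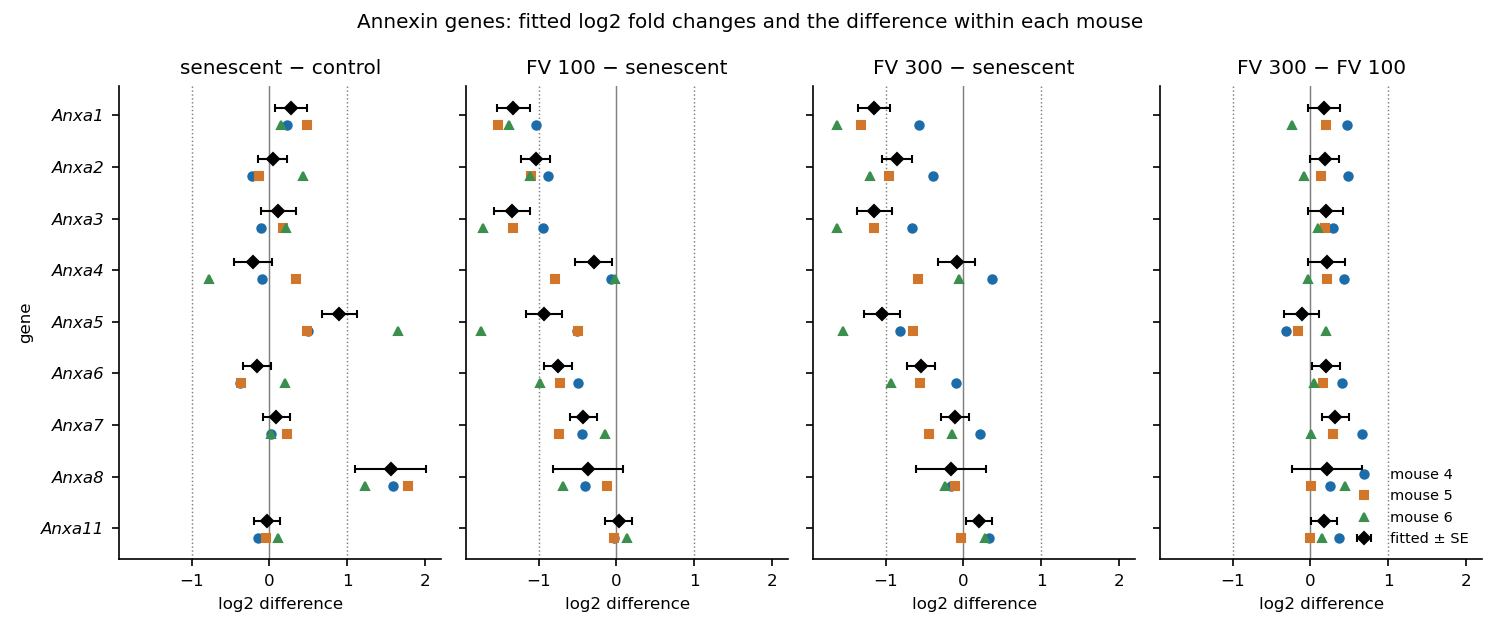
Log2 differences (horizontal axes) of the 9 annexin genes in the 4 comparisons, with the fitted log2 fold change ± SE as black diamonds, the difference within each mouse as coloured points and dotted lines at -1 and 1. At both doses Anxa1, Anxa2, Anxa3, Anxa5 and Anxa6 lie left of 0 in each mouse, and between the doses the fitted values run from -0.11 for Anxa5 to 0.32 for Anxa7.

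Between the doses no difference in the 9 genes was called by edgeR or by DESeq2, and none had an unadjusted p under 0.05. Over all genes tested 0.00665% were DEGs. The log2 fold change of 300 μg/mL against 100 μg/mL ran from -0.11 ± 0.23 (SE) for Anxa5 to 0.32 ± 0.18 for Anxa7, with a median of 0.20 beside 0.08 over all genes, and it was positive for 8 of the 9 genes. It was 0.17 ± 0.21 for Anxa1, 0.19 ± 0.19 for Anxa2, 0.20 ± 0.22 for Anxa3 and 0.20 ± 0.18 for Anxa6. Mouse 4 had the largest rise between the doses in 7 of these genes, such as 0.47 for Anxa1, where mouse 6 had -0.24.

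Across the 12 samples the members fell into genes that moved alike and genes that did not, which is given as a description, since the samples share the groups and the libraries. Pearson's r of log2 CPM was 0.97 between Anxa2 and Anxa6, 0.93 between Anxa1 and Anxa2 and 0.93 between Anxa1 and Anxa3. It was -0.46 between Anxa6 and Anxa8 and -0.45 between Anxa3 and Anxa11, and the median over the 36 pairs was 0.45. Among 12645 genes, those most like Anxa1 were Phldb1 (r = 0.98), Cap1 and Tes, and those most like Anxa2 were Actg1 (r = 0.99), the cytoplasmic γ-actin gene, Capn1, a calpain protease subunit, and Cfl1, the actin-severing protein cofilin. Galnt14 (r = 0.97), Cnn1, which encodes calponin, and Olfm2 were most like Anxa3. Anxa6 was matched by Sars1 (r = 0.99), Acot7 and Ppia, and Anxa5 by 2200002D01Rik (r = 0.96), Ftl1-ps1 and H13, of which Ftl1-ps1 is a pseudogene that may share reads with its parent gene. For Anxa4 the leading gene was Gpbp1 (r = 0.96, then Plaa and Ssb) and for Anxa7 Polr2m (r = 0.95, then Rsu1 and Ap2a1). Anxa8 was most like Prg4 (r = 0.93), the gene of the joint lubricant lubricin, with Cdh13 and Sema5b, and Anxa11 was most like Zfp946 (r = 0.89), Matcap1 and BC002059.

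The 250 bases upstream of each gene's canonical start were searched on both strands for 6 motifs. The AP-1 motif TGANTCA was found in 6.17% of 21770 promoters of this length and, among the 9 genes, in Anxa2, where it began 32 bases before the start. The site is shown because Anxa2 is the only member with it, with the motif in capitals, at chr9:69360859-69360888 of GRCm39 on the plus strand.
Anxa2 upstream site: tccaagttggaTGAGTCAcccagcagggtg
The GC box GGGCGG was found in Anxa2, Anxa3, Anxa6, Anxa7 and Anxa11 and in 36.3% of all promoters. AGAACA, a half-site of the glucocorticoid response element, was found in Anxa6 and in 14.3% of all promoters. The full element was not searched for. None of the 9 windows held the TEAD motif GGAATG, the TATA box TATAAA or the CArG box, which 12.1%, 11.9% and 1.4% of all promoters held. The window of Anxa1 held none of the 6 motifs, and most of this window is a simple repeat of ttc and tcc. A motif match is a match of letters and not a measured binding site.

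To see how genes that work with annexins behaved, 68 genes in 7 lists were followed, 55 of which were tested. The lists were chosen with earlier results of these data known, so the shares and adjusted p-values below are a description. Between untreated senescent and control MEFs 5 of the 55 were DEGs (3 higher and 2 lower, 9.09%), where 8.42% of all genes were. At 100 μg/mL Fucoidan-FV 4 were lower DEGs (7.27%) and at 300 μg/mL the same number, where 2.69% and 1.64% of all genes were DEGs in either direction. None was called between the doses by edgeR or DESeq2, and none had an unadjusted p under 0.05 there.

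Among 5 S100 genes, whose proteins bind the tails of annexins, S100a6 was the 1 that passed the test. This partner of annexins A2 and A11 had 891, 1030 and 1851 CPM in the untreated senescent samples of mice 4, 5 and 6, against 403, 369 and 320 CPM with 100 μg/mL and 462, 347 and 372 CPM with 300 μg/mL Fucoidan-FV. All treated samples lay below all untreated senescent and all control samples (530 to 761 CPM). S100a6 fell by 1.79 ± 0.27 (SE, adjusted p = 0.00448) on the log2 scale at 100 μg/mL and by 1.67 ± 0.26 (adjusted p = 0.00863) at 300 μg/mL, the latter with an adjusted p of 0.0604 without treated mouse 6. Between senescent and control MEFs S100a6 differed on the log2 scale by 0.88 ± 0.26 (adjusted p = 0.0426, and 0.0813 with the mouse as a block), under the fold threshold of a DEG, and without senescent mouse 6 it was 0.50.

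S100a10, the partner of annexin A2 in the tetramer, was not called in any comparison. It had 79.8, 70.6 and 177 CPM in the untreated senescent samples, 86.9, 88.6 and 84.2 CPM with 100 μg/mL and 74.2, 70.9 and 79.6 CPM with 300 μg/mL, so the groups overlapped. The difference on the log2 scale was 0.15 ± 0.32 (SE) in senescent against control MEFs, -0.34 ± 0.32 at 100 μg/mL and -0.54 ± 0.32 at 300 μg/mL. S100a11, the partner of annexin A1, has a single annotated transcript and varied from 35.4 to 172 CPM within the control group alone, so differences between the groups were not resolved from this spread (log2 fold change 0.09 ± 0.58 and -0.51 ± 0.58 SE at 100 and 300 μg/mL).

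The formyl peptide receptors, through which secreted annexin A1 acts on leukocytes, were not detectable at this depth. Fpr1 had 0 to 2 counts per library, Fpr2 0 to 3, and Fpr3, Fpr-rs3, Fpr-rs4, Fpr-rs6 and Fpr-rs7 had 0 in every library. None of these 7 genes was tested.

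Of 9 partners of annexins A2, A7 and A11, 8 were tested and none was called in any comparison by edgeR or DESeq2, with 2, 5, 2 and 0 of them under an unadjusted p of 0.05 in the comparisons of senescent with control MEFs, of each dose with untreated senescent MEFs and of the doses. Ahnak, a giant scaffold protein that binds the annexin A2 and S100a10 complex, had 480, 280 and 247 CPM in the untreated senescent samples, 727, 748 and 417 CPM with 100 μg/mL and 275, 620 and 387 CPM with 300 μg/mL. At 100 μg/mL the difference of 0.91 ± 0.39 on the log2 scale (SE, adjusted p = 0.217) had the opposite sign to that of Anxa2. At 300 μg/mL it was 0.35 ± 0.39 and in senescent against control MEFs 0.02 ± 0.39. Ahnak was highest in mice 4 and 5 at 100 μg/mL, whose libraries were high in genes with a single transcript (median log2 deviation 1.08 and 1.21). Its lowest value, 175 CPM, was in control mouse 6, whose library was low in such genes (-1.54). The part of this in the Ahnak result was not tested.

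Among 19 genes of plasma membrane repair, Cav1 and Smpd1 were higher DEGs in senescent MEFs. Cav1, the main coat protein of caveolae, had 586, 558 and 622 CPM in control MEFs, 1651, 1838 and 1044 CPM in untreated senescent MEFs, 617, 533 and 357 CPM with 100 μg/mL and 871, 564 and 331 CPM with 300 μg/mL. The untreated senescent samples lay above all the others. Cav1 was higher by 1.36 ± 0.32 (SE, adjusted p = 0.015) on the log2 scale in senescent MEFs, and it fell by 1.59 ± 0.32 (adjusted p = 0.0174) at 100 μg/mL and by 1.36 ± 0.32 (adjusted p = 0.0488) at 300 μg/mL. These calls held in 2, 1 and 1 of the 6 settings that left out a sample, with adjusted p up to 0.0689, 0.101 and 0.197, while the direction held in all of them. The exceptions that kept the call were control mouse 6 or senescent mouse 6 in the first comparison, senescent mouse 6 in the next and treated mouse 4 in the last.

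Smpd1, the acid sphingomyelinase that lysosomes release at membrane tears, had 29.6, 32.4 and 31.0 CPM in control MEFs and 65.8, 61.3 and 60.8 CPM in untreated senescent MEFs. The difference on the log2 scale was 1.01 ± 0.17 (SE, adjusted p = 0.00188), and 0.96 without senescent mouse 4 and 0.98 without control mouse 4, under the fold threshold. With Fucoidan-FV it was not called, at 74.6 to 79.4 CPM with 100 μg/mL and 77.5 to 105 CPM with 300 μg/mL. The median log2 fold change of the 19 repair genes was -0.30 at 100 μg/mL and -0.31 at 300 μg/mL.

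Of 12 scramblases and flippases, which set how much phosphatidylserine the outer leaflet shows to annexin A5, Plscr4 was a higher DEG in senescent against control MEFs. Plscr4, a scramblase family member, was low throughout, with 0.05 to 0.25 CPM in control MEFs and 0.58 to 1.16 CPM in untreated senescent MEFs (log2 fold change 2.49 ± 0.73 SE, adjusted p = 0.0427). With the mouse as a block the adjusted p was 0.0792 for Plscr4, and 3 of the 55 genes of the 7 lists were then called. The call of Plscr4 was lost without control mouse 5 or 6 or senescent mouse 4 or 5 (adjusted p up to 0.122). With Fucoidan-FV, Plscr4 had 2.54 to 2.75 CPM at 100 μg/mL and 1.16 to 3.15 CPM at 300 μg/mL, and the log2 difference of 1.70 ± 0.67 at 100 μg/mL (SE, edgeR adjusted p = 0.175) was called by DESeq2. No other gene of this list was called at either dose by edgeR or DESeq2, and 1 gene had an unadjusted p under 0.05 at each.

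Of 7 phospholipase A2 genes, followed because annexin A1 is known to restrain cytosolic phospholipase A2, 3 were tested and none was a DEG. Pla2g6, which is not one of the cytosolic (Pla2g4) enzymes, passed the adjusted p alone in senescent against control MEFs. It was higher there by 0.60 ± 0.18 on the log2 scale (SE, adjusted p = 0.0487, and 0.0673 with the mouse as a block).

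Of 9 genes that respond to glucocorticoids, which also induce Anxa1, 8 were tested. Fkbp5, a co-chaperone of the glucocorticoid receptor, fell from 57.2, 54.3 and 64.4 CPM in control MEFs to 18.2, 10.9 and 16.8 CPM in untreated senescent MEFs, a decrease by 1.94 ± 0.28 (SE, adjusted p = 0.000721) on the log2 scale that was called in all 15 alternative settings. It was not called with Fucoidan-FV, at 11.1 to 19.0 CPM over both doses. Dusp1, a phosphatase of MAP kinases, had 193, 270 and 230 CPM in untreated senescent MEFs, 85.3, 107 and 85.6 CPM with 100 μg/mL and 112, 112 and 91.9 CPM with 300 μg/mL. The treated samples all lay below the untreated senescent samples and below the control samples (116 to 157 CPM). Dusp1 fell by 1.32 ± 0.19 (SE, adjusted p = 0.00393) and by 1.14 ± 0.19 (adjusted p = 0.0101) on the log2 scale, the latter with an adjusted p of up to 0.0728 (without treated mouse 6) and a decrease under the fold threshold without senescent mouse 5 (-0.96). The difference of 0.76 ± 0.19 on the log2 scale (adjusted p = 0.0181) between senescent and control MEFs was under the fold threshold.

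Sgk1, a serine/threonine kinase, had 334, 310 and 229 CPM in untreated senescent MEFs, 97.7, 92.8 and 94.1 CPM with 100 μg/mL and 183, 93.9 and 82.0 CPM with 300 μg/mL. Again the treated samples lay below all untreated senescent and all control samples (215 to 364 CPM). It fell by 1.62 ± 0.30 (SE, adjusted p = 0.0112) and by 1.28 ± 0.30 (adjusted p = 0.0442). Leaving out a sample ended the call at 100 μg/mL in 3 of 6 cases (treated mouse 4 or 5 or senescent mouse 5, adjusted p up to 0.0549) and at 300 μg/mL in 4 of 6 (treated mouse 5 or 6 or senescent mouse 4 or 5, adjusted p up to 0.215). Fkbp5 was thus lower than in control MEFs in each senescent group, while Dusp1 and Sgk1 had their lowest values in the treated groups. In senescent against control MEFs 6 of the 8 genes were higher and 2 lower, with a median log2 fold change of 0.37. The median was -0.10 at 100 μg/mL (3 higher and 5 lower) and 0.01 at 300 μg/mL (4 higher and 4 lower).

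**Figure D4:**
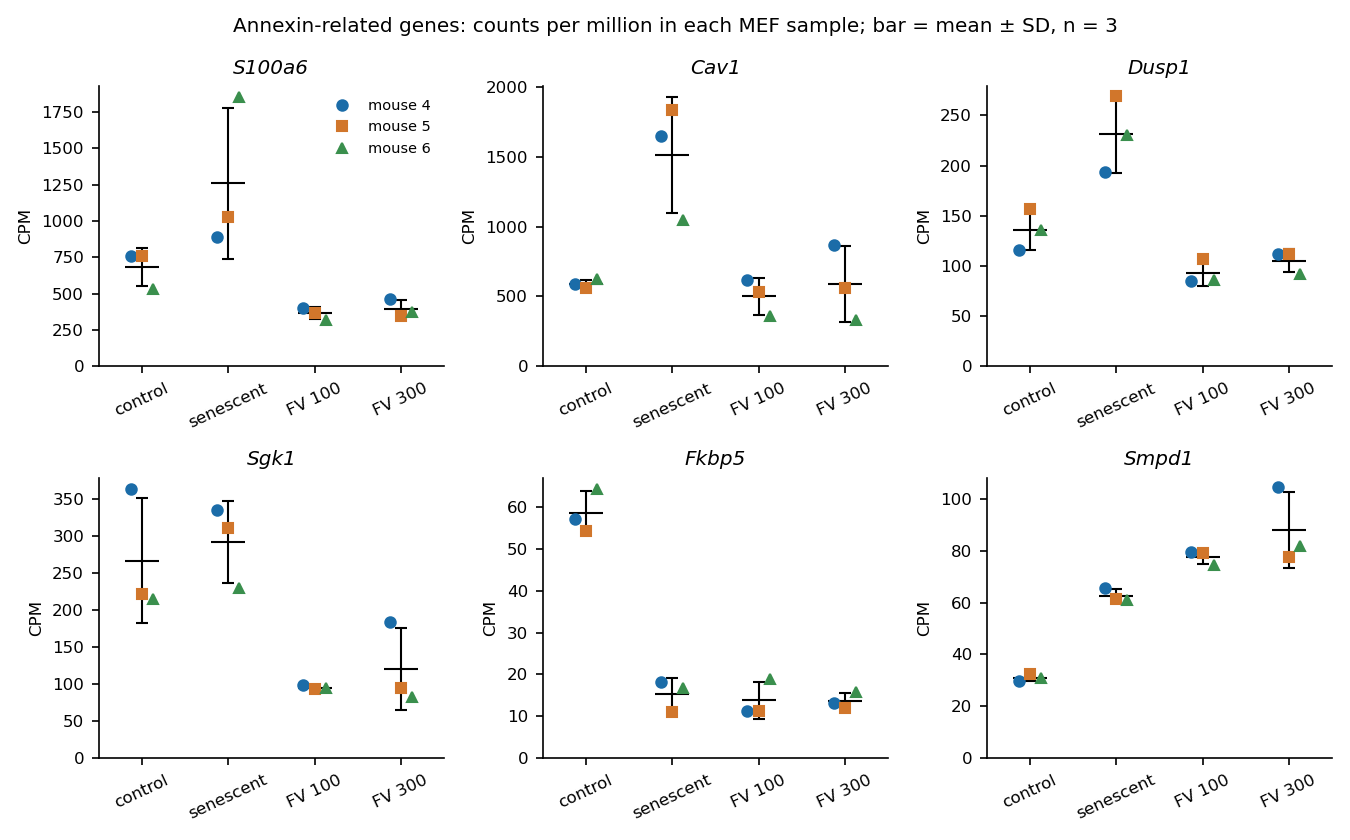
Level of 6 genes related to annexins in TMM-scaled CPM (vertical axes, from 0) in the 4 groups, with a point for each mouse and black bars for the mean ± SD of 3 mice. S100a6, Dusp1 and Sgk1 lie lower in all samples with Fucoidan-FV (FV 100 and FV 300, in μg/mL) than in all others, Cav1 is highest in the 3 untreated senescent samples, and Fkbp5 stays between 10.9 and 19.0 CPM in all senescent groups.

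Exons of some annexin genes overlap those of other genes. Of their exonic bases 12.2% (Anxa4), 9.24% (Anxa11), 6.46% (Anxa5), 1.95% (Anxa2) and 1.4% (Anxa6) lie opposite to another gene, and Anxa1, Anxa7 and Anxa8 share none. On the same strand, Anxa3 shares 1.8% of its exonic bases and Anxa5 0.75% with another gene, where the strand cannot tell the reads apart. Reads in bases opposite to another gene could be assigned to either gene if the counting did not use the strand. Among the named partner genes the share opposite to another gene was 14.4% for Sgk1, 9.81% for Pla2g6, 5.79% for Cav1, 3.58% for Fkbp5 and 1.14% for Dusp1.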

How the data were processed

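RNA-seq of MEFs (13 libraries, TruSeq Stranded Total RNA kit) was analysed. The members and the gene lists were chosen with earlier results of these data known. Per the labels and the study's methods, the authors checked reads with FastQC 0.12.1, trimmed them with Trimmomatic, aligned them to GRCm39 with STAR 2.7.11b and quantified genes with RSEM 1.3.1. The authors deposited expected counts per gene without normalization, and beside them TPM, which RSEM scales for transcript length and library size. RSEM divides reads that match several transcripts. The strand setting is not given in the sources used here. A joint table of RSEM counts was not used.

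Gene symbols came from GENCODE vM39 (56310 of 57010 identifiers matched). Expected counts were rounded, and control libraries 5(1) and 5(2) were summed to 1 sample of mouse 5. Genes were kept with filterByExpr (minimum count 10, minimum total count 15), and the 12 samples were fitted together with edgeR 4.0.16 (R 4.3.3), TMM factors and the quasi-likelihood test, with Benjamini-Hochberg adjustment over the 15034 genes tested. The thresholds of a DEG, an adjusted p of 0.05 and a log2 fold change of 1 in size, follow the study's methods. All 9 members were named, and of each partner list the genes called a DEG in a comparison (up to 6), with S100a10, S100a11, Fpr1, Fpr2 and Ahnak. A gene that the counts of the lists include is not reported here. Pla2g6 and the marker genes were named after their values were seen. Likeness used log2 CPM (prior count 2) over 12 samples. TPM served to compare genes and were not tested. Samples with 1 number come from the same mouse by the labels. For 18 such pairs, deviations from the group mean correlated with a median r of -0.01 (-0.20 to 0.43, 8 above 0.1). Nothing further says that the groups of 1 mouse were separate cultures, so p-values measure the spread between these samples. The depth was 22782536 to 31278750 counts in each library. Alternatives were DESeq2 1.42.0, RLE factors, other filters, fits of only the groups compared, either control library alone, the mouse as a block and each sample left out. Chosen after the data were seen were a fit of only genes with several transcripts and 1 fixed length per gene.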

Additional observations from a re-analysis of the deposited data

How the results depend on the processing

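The number of DEGs among the 9 annexin genes in senescent against control MEFs (1) was 0 when only the 2 groups were fitted or with control library 5(2) alone, and 2 with library 5(1) alone or with the adjusted p alone. At 100 μg/mL Fucoidan-FV (3) it was 1 with only the 2 groups and 5 with the adjusted p alone. It was 2, without Anxa2, with RLE factors, DESeq2, either other filter or only genes with several transcripts. At 300 μg/mL (3) it was 0 with only the 2 groups and 2 with library 5(2) alone or the replicate block. A fit of 2 groups has fewer samples from which to estimate the spread. Leaving out each sample in turn gave 0 to 1, 1 to 3 and 0 to 2 DEGs, and 0 between the doses. The median log2 fold change of the 9 genes in senescent against control MEFs (0.09) turned to -0.01 with library 5(1) alone and was 0.16 with library 5(2) alone. With a sample left out the medians ran from 0.04 to 0.12, from -0.77 to -0.43, from -0.64 to -0.37 and from 0.06 to 0.28.

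Among the partner lists the 5 DEGs in senescent against control MEFs became 3 with only the 2 groups, 2 with library 5(2) alone, 3 with the replicate block (the mouse as a block) and 8 with the adjusted p alone. The 4 at 300 μg/mL became 2 with only the 2 groups and 2 with library 5(2) alone. With a sample left out there were 2 to 4, 2 to 4, 0 to 4 and 0 between the doses. Over all genes tested, 1266 DEGs in senescent against control MEFs became 699 with only the 2 groups. The 405 at 100 μg/mL became 800 without the filter, 168 with only the 2 groups and 770 with DESeq2, and the 246 at 300 μg/mL became 580, 101 and 606. The 1 DEG between the doses became 2 without the filter and 0 with at least 10 counts in every sample, only the 2 groups, library 5(2) alone or the replicate block. With a sample left out the counts over all genes were 911 to 1456, 136 to 365, 46 to 220 and 0. The cause was not tested. The replicate block moved no other count of calls by more than 1.5 times, and among the members it ended the call of Anxa5 at 300 μg/mL.

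The share of DEGs at 100 μg/mL that were higher was 40.7%, and it was 54.2% with RLE factors, 62.3% with DESeq2 and 66.8% without the filter. The Anxa1 share of summed TPM ran, with a mouse left out, from 30.1% to 33.9% in control MEFs, 32.8% to 34.2% in untreated senescent MEFs, 29.0% to 30.2% at 100 μg/mL and 27.8% to 30.3% at 300 μg/mL. Among the 9 members, Anxa8 had the widest SE in all 4 comparisons (0.45 to 0.46).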
